A study of Homo sapiens with 4 samples.

Results

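The 9 genes described here, NQO1, HMOX1, TXNRD1, GCLM, GCLC, SRXN1, TXN, PRDX1 and SLC7A11, are known targets of the transcription factor NRF2. They were found by gene symbol among the 36601 genes of the count matrices, and each symbol named 1 row. BEAS-2B, a human bronchial epithelial line that has been immortalized, was exposed to gamma rays from a Cs-137 source at 10 mGy, 100 mGy or 1 Gy, or was left without radiation as the control. RNA of single cells was captured 30 min after irradiation, and each dose had 1 library. All cells are of this 1 line, and no allele or further agent is given for any library. With 1 library per dose there is no replicate, so no test between doses was made, and an effect of dose and one of the library cannot be told apart.

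NRF2, encoded by NFE2L2, is held at a low level in unstressed cells by KEAP1, an adaptor that delivers it to a CUL3 and RBX1 ubiquitin ligase for degradation. Oxidants and electrophiles modify KEAP1, NRF2 then accumulates, pairs with a small MAF protein, and binds antioxidant response elements in its target genes, where the repressor BACH1 competes for the same elements, HMOX1 being the classical example. The targets make glutathione, reduce thioredoxin and peroxiredoxins, detoxify quinones and break down heme. Airway epithelium meets inhaled oxidants, and this pathway is among its main inducible defences.

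The core letters of the element, TGACNNNGC read on either strand, were looked for in RefSeq promoter windows (GRCh38.p14), each 300 bases long, from 250 bases before to 50 bases after a gene's start. Windows were found for 6 of the 9 genes, 7 windows in all, and the letters stood in 3 of these 7 windows, in GCLM and TXNRD1. Of all 35116 windows 13.3% held them. All matches but 1, which reaches a RefSeq start, are printed with their surroundings. The antioxidant response element is what the 9 genes are known to share. Capitals mark the letters of the match, and the sequences are given 5′ to 3′ on the strand of the gene.
GCLM, chr1:93909431-93909494, minus strand: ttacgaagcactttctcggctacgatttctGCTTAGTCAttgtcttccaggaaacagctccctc
TXNRD1, chr12:104215650-104215718, plus strand: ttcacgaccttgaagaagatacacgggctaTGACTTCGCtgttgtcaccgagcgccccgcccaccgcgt
TXNRD1, chr12:104286900-104286968, plus strand: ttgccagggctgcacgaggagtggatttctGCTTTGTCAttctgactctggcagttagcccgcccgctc
The GCLM match lies on the opposite strand, where it reads TGACTAAGC, 34 bases before the RefSeq start. It covers chr1:93909456-93909464 and so meets the upstream end of the GCLM span given below. The RefSeq start lies inside that span. The TXNRD1 window at the gene's upstream start holds TGACTTCGC 99 bases before that start. The other TXNRD1 window, inside the annotated span of the gene, holds TGACAAAGC on the opposite strand, 102 bases before its own start. The related letters TGACTCA were in 4.95% of all windows and in none of the 7. A match of letters is a description and does not show binding, and a window without them says nothing of elements farther away.

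Levels are pooled CPM, the UMIs (unique molecular identifiers, 1 per captured mRNA molecule) of a gene summed over every deposited barcode of a library, per 1000000 UMIs of that library. Because the 3′ kit tags each molecule once, at its end, levels were set side by side between genes without dividing by length. The libraries held 211752280 to 285806026 UMIs in 11111 to 21514 barcodes, and between 19.6% and 41.4% of the barcodes had a UMI count below the library median divided by 3 (low-UMI barcodes). Any pair of libraries shared 76 to 134 barcode sequences. Ribosomal protein genes took more of the UMIs at 10 mGy (19.9%) and 100 mGy (21.7%) than in the control (13.9%) and 1 Gy (14.0%) libraries, and the nuclear RNA MALAT1 took fewer, at 7801 and 7401 CPM against 12575 and 11949. The keratins KRT7, KRT8 and KRT18 were between 219 and 645 CPM, but the epithelial markers KRT19, EPCAM and CDH1 were at 2.41 CPM or below, and vimentin (VIM), a mesenchymal marker, was at 2345 CPM or more. The 6 epithelial markers summed to 1017 to 1155 CPM and the 3 mesenchymal ones (VIM, CDH2, FN1) to 4431, 3288, 3135 and 4005 CPM in the order of the doses. FN1, the gene of fibronectin, was low in the 10 mGy and 100 mGy libraries, at 1546, 623, 640 and 1466 CPM in the same order, and the part of these markers in the results for those libraries was not tested. Of 7 markers of blood, endothelial and liver cells, 6 had a UMI in each library, at a sum of 7.41 to 11.1 CPM that was nearly all CD68, and CD3E was at 0 throughout.

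Over the 9 genes, the control and 1 Gy libraries were close to each other in pooled CPM, whereas the 10 mGy and 100 mGy libraries differed from the control in both directions. In pooled CPM, TXN, PRDX1 and NQO1 exceeded the control at both low doses. GCLM, GCLC, SRXN1 and SLC7A11 were lower at both, TXNRD1 was moderately lower, and HMOX1 was far lower at 100 mGy than at 10 mGy. These directions, and the closeness at 1 Gy, are relative to all UMIs of a library. At 1 Gy all 9 were over 1.2-fold lower in unscaled UMIs per barcode, as were 97.2% of all genes. In unscaled UMIs per barcode NQO1 was below the control at both low doses and TXN at 100 mGy, and with scaling by the median ratio of genes the HMOX1 ratio at 10 mGy passed to the other side of 1.

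**Figure D1:**
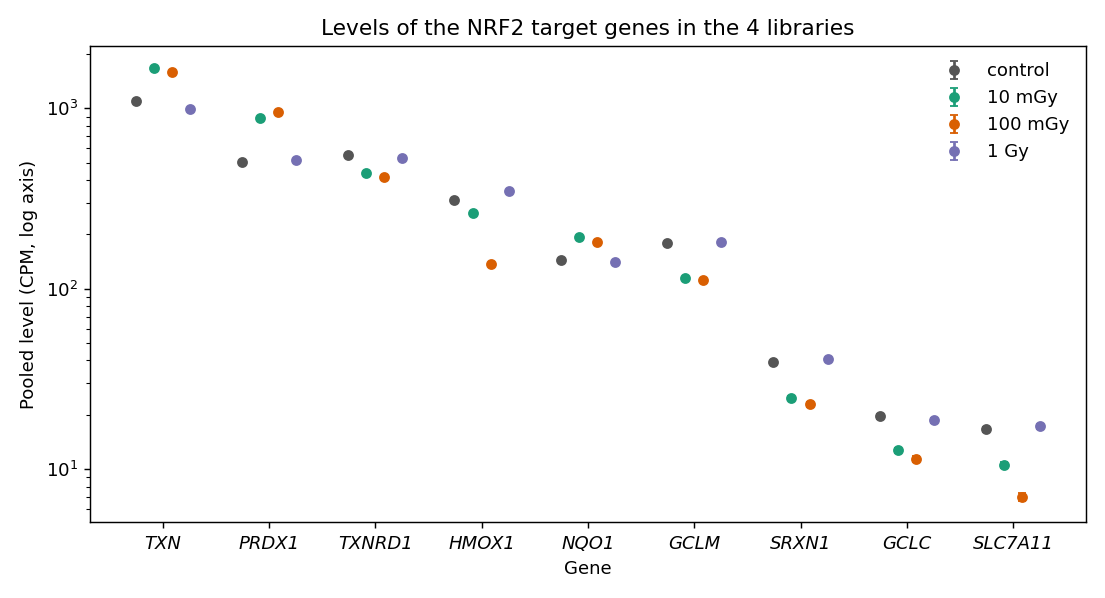
Pooled CPM (y axis, log scale) of the 9 genes (x axis), 1 library per dose. Within each gene, coloured symbols show the control, 10 mGy, 100 mGy and 1 Gy libraries from left to right. The 95% intervals for counting error are smaller than most symbols. TXN is highest in every library and SLC7A11 lowest, and HMOX1 reads 311, 264, 138 and 348 CPM from left to right.

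Thioredoxin is the small redox protein that reduces disulfides in other proteins, and its gene TXN (chr9:110243811-110256640, minus strand; this and the following coordinates are GRCh38, GENCODE 29, matched by gene identifier) had the highest level of the 9. TXN stood at 1103 CPM without radiation, 1679 after 10 mGy, 1593 after 100 mGy and 993 after 1 Gy. Both low-dose libraries were therefore high, and 1 Gy was slightly below the control. The 10 mGy library gave a ratio to the control of 1.52 (95% interval 1.52 to 1.53), the 100 mGy library 1.44 (1.44 to 1.45) and the 1 Gy library 0.900 (0.895 to 0.906). These intervals, like all that follow, are exact for counting error and do not cover differences between cultures or library preparations.

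PRDX1 (chr1:45511036-45523047, minus strand), a peroxiredoxin that breaks down hydrogen peroxide and is itself reduced by thioredoxin, was at 502, 883, 957 and 518 CPM in the control, 10 mGy, 100 mGy and 1 Gy libraries. It had the largest ratio of the 9 genes at each low dose, 1.76 (1.75 to 1.77) at 10 mGy and 1.91 (1.89 to 1.92) at 100 mGy, against 1.03 (1.02 to 1.04) at 1 Gy. In unscaled UMIs per barcode the ratio was 1.22 at both low doses. TXN and PRDX1 have processed pseudogenes, so how their reads were assigned is uncertain.

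TXNRD1 (chr12:104215779-104350305, plus strand) encodes the cytosolic thioredoxin reductase, a selenoprotein that uses NADPH to recharge thioredoxin. Its level was 550, 439, 415 and 534 CPM in the order of the doses. In pooled CPM it was lower at both low doses, with ratios of 0.798 (0.792 to 0.805) and 0.755 (0.749 to 0.762). SRXN1 (chr20:646615-653370, minus strand), the sulfiredoxin that repairs overoxidized peroxiredoxins, was at 39.1, 24.7, 22.8 and 40.7 CPM in the order of the doses. The 10 mGy library gave a ratio of 0.633 (0.613 to 0.653), and the 100 mGy library one of 0.584 (0.564 to 0.604). The TXNRD1 ratios were near those of the median gene, 0.810 and 0.766, and the SRXN1 ratios below them.

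In the synthesis of glutathione, SLC7A11 (chr4:138164097-138242349, minus strand) is the cystine carrier of the plasma membrane, and GCLC and GCLM are the catalytic and modifier subunits of glutamate-cysteine ligase, the rate-limiting enzyme. SLC7A11 was at 16.7, 10.5, 7.02 and 17.3 CPM in the control, 10 mGy, 100 mGy and 1 Gy libraries. It came to 0.632 (0.602 to 0.664) times the control at 10 mGy and 0.421 (0.397 to 0.446) times at 100 mGy. GCLC (chr6:53497341-53616970, minus strand) was at 19.6, 12.7, 11.4 and 18.6 CPM in the same libraries. GCLM (chr1:93885205-93909456, minus strand) was far more abundant, at 180, 114, 112 and 182 CPM. All 3 were low at both low doses and near the control at 1 Gy. GCLC and GCLM had ratios of 0.650 (0.622 to 0.680) and 0.636 (0.627 to 0.646) at 10 mGy, and of 0.580 (0.553 to 0.609) and 0.621 (0.611 to 0.630) at 100 mGy.

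NQO1 (chr16:69706996-69726951, minus strand), the quinone reductase commonly used as a readout of NRF2, was at 144 CPM without radiation, 195 after 10 mGy, 181 after 100 mGy and 140 after 1 Gy. The low-dose libraries were the high ones in pooled CPM, with ratios of 1.35 (1.33 to 1.37) and 1.26 (1.24 to 1.27), although unscaled UMIs per barcode gave 0.938 and 0.804, or 1.23 and 0.890 without the low-UMI barcodes. At 1 Gy the ratio was 0.973 (0.958 to 0.989).

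HMOX1 (chr22:35380361-35394214, plus strand) encodes heme oxygenase 1, which cleaves heme into biliverdin, iron and carbon monoxide. Its level was 311 CPM without radiation, 264 after 10 mGy, 138 after 100 mGy and 348 after 1 Gy. The 100 mGy library was the low one, and the 1 Gy library was the highest in pooled CPM, while in unscaled UMIs per barcode 1 Gy was at 0.798 times the control, where the median gene was at 0.721. Set against the control, 10 mGy gave a ratio of 0.848 (0.840 to 0.857), 100 mGy 0.443 (0.437 to 0.449) and 1 Gy 1.12 (1.11 to 1.13). HMOX1 was the one of the 9 genes that differed most between the low doses, with a ratio of 0.522 (0.516 to 0.529) for 100 mGy against 10 mGy. Among the 8507 genes with a mean of at least 10 CPM over the libraries, 8 had a lower ratio in that comparison. Over 6 other ways of scaling or choosing barcodes the ratio was 0.515 to 0.553, and in unscaled UMIs per barcode, with and without the low-UMI barcodes, it was 0.482 and 0.398. SLC7A11 was next, at 0.666 (0.627 to 0.707), with 72 genes lower.

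The order of the levels in the control was TXN, TXNRD1, PRDX1, HMOX1, GCLM, NQO1, SRXN1, GCLC and SLC7A11. At 10 mGy and 100 mGy PRDX1 passed TXNRD1. NQO1 passed GCLM at 10 mGy, and at 100 mGy it passed HMOX1 too. Counting intervals of neighbours in this order did not overlap in the control, but without replicates the spread between libraries of 1 dose is unknown, so no neighbours can be said to differ beyond it.

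**Figure D2:**
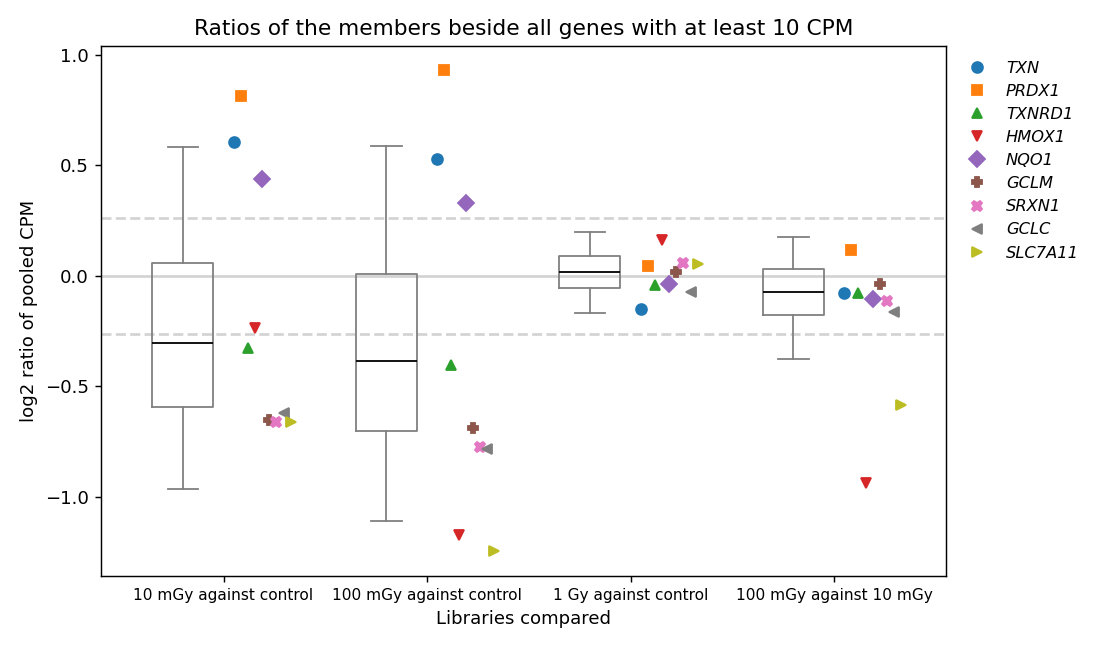
Log2 ratios of pooled CPM (y axis) for the 9 genes as coloured symbols, in 4 comparisons of libraries (x axis). Beside them, grey boxes with whiskers show the 8500 genes with an exonic length, with their median as a black line. PRDX1, TXN and NQO1 lie above 0 at 10 mGy and 100 mGy on this scale, while in unscaled UMIs per barcode, where the median gene was at 0.562 and 0.490 times the control, NQO1 falls below 0 at both doses and TXN at 100 mGy. Without the low-UMI barcodes the unscaled ratios were 1.23 and 0.890 for NQO1 and 1.38 and 1.02 for TXN.

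The ratios have to be read beside those of all genes, because most genes were lower than in the control at the low doses. Over the 8507 genes the log2 ratio had a median of -0.30 at 10 mGy and -0.38 at 100 mGy, but 0.02 at 1 Gy. Past 1.2-fold, the fold the study uses, 3 of the 9 genes were higher at 10 mGy and 5 lower, against 15.4% and 53.0% of all genes. The 100 mGy library had 3 higher and 6 lower, beside 14.0% and 58.9% of all genes. At 1 Gy none of the 9 was past 1.2-fold either way, where 1.28% of all genes were higher and 0.846% lower. For 100 mGy against 10 mGy 0 were higher and 2, HMOX1 and SLC7A11, were lower, against 1.35% and 12.7% of all genes. On this scale and at this fold, the share of lower genes among the 9 was close to the background at the low doses. Past 1.5-fold 4 and 5 of the 9 were lower at 10 mGy and 100 mGy, where 25.8% and 33.9% of all genes were, and 2 and 1 were higher, where 4.94% and 5.04% were. The median ratio of the 9 was 0.798 at 10 mGy and 0.621 at 100 mGy, beside 0.810 and 0.766 over all genes.

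Relative to the median of all genes, TXNRD1 stood at 0.985 and 0.986 at the low doses, close to the median gene. PRDX1 was at 2.17 and 2.49, TXN at 1.88 at both doses, and NQO1 at 1.67 and 1.64. GCLM, GCLC, SRXN1 and SLC7A11 remained low, between 0.781 and 0.803 at 10 mGy and between 0.549 and 0.810 at 100 mGy. HMOX1 was at 1.05 at 10 mGy and 0.578 at 100 mGy. On this scale 10 mGy had 3 of the 9 over 1.2-fold higher (30.7% of all genes) and 4 lower (27.0%). For 100 mGy it was 3 higher (31.8%) and 5 lower (29.0%).

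The length of a gene's exons moved with its ratio at the low doses. Over 8500 genes with a length, Spearman's rho between exonic length and the log2 ratio was -0.555 for 10 mGy, -0.567 for 100 mGy and 0.03 for 1 Gy, as a description across genes of the same libraries. The genes were cut into 5 equal classes of length. In the shortest class the median ratio was 1.14 at 10 mGy and 1.11 at 100 mGy, and in the longest 0.654 and 0.604. TXN (1142 bases) and PRDX1 (1522 bases) belong to the shortest class and were above its median, and NQO1 (3254 bases) was above the medians of the next class, 0.897 and 0.857. HMOX1 (2405 bases) and SRXN1 (2698 bases) also belong to the shortest class but were below its median at both low doses. TXNRD1 (6708 bases) was above the medians of its class, 0.726 and 0.678, and GCLC (8646 bases), of the same class, was below them. GCLM (5420 bases, class medians 0.790 and 0.758) and SLC7A11 (9645 bases, in the longest class) were below theirs as well. The part of length in these ratios was not tested.

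**Figure D3:**
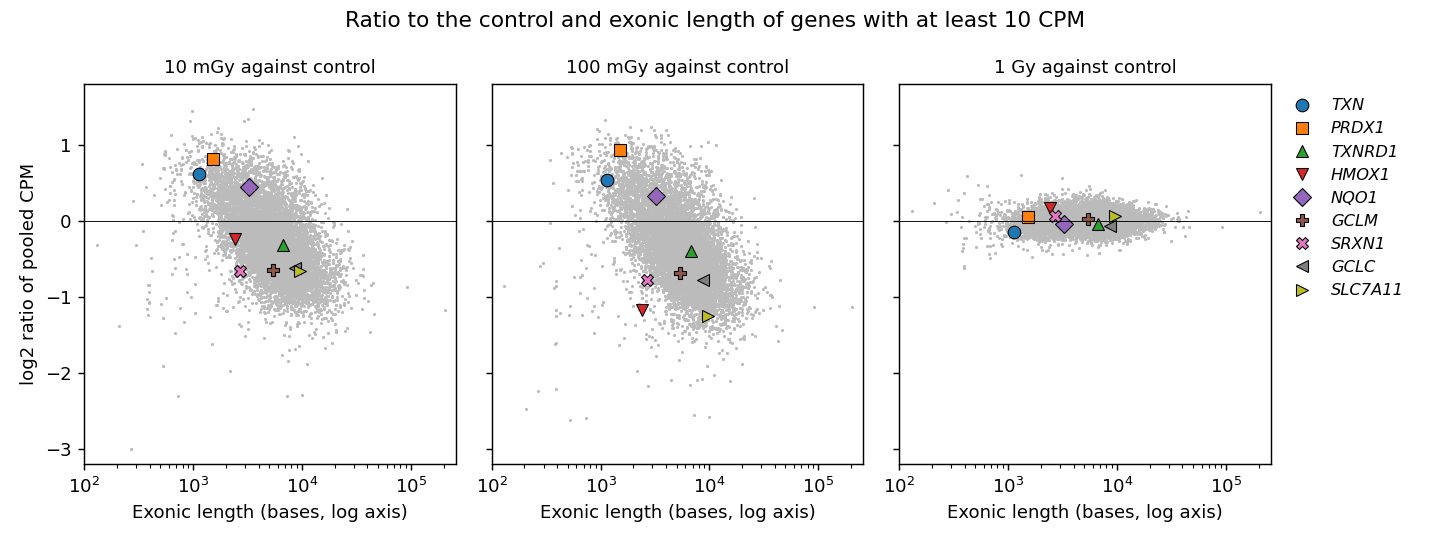
Log2 ratio of pooled CPM to the control (y axis) against exonic length (x axis, log scale) for 8500 genes in grey and the 9 NRF2 targets as coloured symbols, at 10 mGy, 100 mGy and 1 Gy. Short genes lie higher than long ones at 10 mGy and 100 mGy, HMOX1 and SRXN1 lie below genes of like length there, and at 1 Gy the 9 lie between -0.15 and 0.16.

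The low-UMI barcodes, whose median was 851 to 1763.5 UMIs, did not have the same levels as the other barcodes. NQO1 was 1.31 to 1.69 times as high in them, PRDX1 1.08 to 1.71 times and TXN 1.05 to 1.36 times over the 4 libraries, and HMOX1 0.687 to 0.856 times. Without these barcodes the counts of the 9 genes past 1.2-fold did not change at any dose.

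NFE2L2, the gene of NRF2 itself, was at 82.6, 84.8, 91.2 and 86.9 CPM in the order of the doses. Its ratios of 1.03 and 1.10 at the low doses became 1.27 and 1.44 relative to the median of all genes, and 0.712 and 0.706 in unscaled UMIs per barcode. Of 9 genes of NRF2 and its regulators, 10 mGy had 2 over 1.2-fold higher and 6 lower, and 100 mGy 1 higher and 6 lower, near the 53.0% and 58.9% of all genes that were lower. Relative to the median of all genes, 3 were higher (30.7% and 31.8% of all genes) and 4 lower (27.0% and 29.0%) at each dose, and in unscaled UMIs per barcode 7 and 8 were lower (84.6% and 90.1%). The 6 lower in pooled CPM were, at both doses, KEAP1, CUL3, BACH1, MAFF, MAFG and MAFK. MAFF, a small MAF protein, was at 37.5, 16.7, 12.9 and 37.1 CPM, with ratios of 0.445 and 0.343 at the low doses. BACH1, the repressor, was at 56.0, 30.9, 26.9 and 49.3 CPM. RBX1, the RING subunit of the ligase, was high at both low doses, at 1.72 and 1.90 times the control. SQSTM1, the autophagy receptor that can sequester KEAP1, was at 273, 365, 252 and 283 CPM, with ratios of 1.34 and 0.925 at the low doses. They were 1.65 and 1.21 with median ratio scaling, and 0.928 and 0.592 in unscaled UMIs per barcode.

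A further 31 genes known as NRF2 targets or tied to glutathione were listed, and 18 of them reached 10 CPM. The 10 mGy library had 9 of the 18 higher and 4 lower, and the 100 mGy library 5 higher and 4 lower. Of all genes 15.4% and 14.0% were higher and 53.0% and 58.9% lower. Their median ratio was 1.23 at 10 mGy and 1.02 at 100 mGy, above the 0.810 and 0.766 of all genes. With median ratio scaling 13 and 12 of the 18 were higher (30.6% and 31.8% of all genes) and 1 lower at each dose (27.3% and 29.0%). In unscaled UMIs per barcode 2 and 0 were higher (1.62% and 1.02%) and 9 and 16 lower (84.6% and 90.1%). In pooled CPM none was past 1.2-fold at 1 Gy.

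Of 6 genes of heme and iron handling 4 reached 10 CPM, and these 4 were over 1.2-fold higher at 10 mGy in pooled CPM (15.4% of all genes) and 2 in unscaled UMIs per barcode (1.62%). At 100 mGy 2 were higher (14.0%), while unscaled 0 were higher (1.02%) and 3 lower (90.1%). Relative to the median of all genes, all 4 were higher at 10 mGy and at 100 mGy (30.7% and 31.8% of all genes). For 100 mGy against 10 mGy 3 were lower (12.7% of all genes). FECH and SLC48A1, under 10 CPM, were at 0.961 and 0.949 times the control at 10 mGy and 0.867 and 0.864 times at 100 mGy. FTL, the light chain of the iron store ferritin, was at 2605, 4634, 3097 and 2581 CPM in the order of the doses. FTH1, the heavy chain, was at 3968, 5230, 3889 and 3886 CPM. BLVRB, a biliverdin reductase, was at 66.3, 154, 117 and 59.9 CPM. In pooled CPM these 3 were, like HMOX1, lower at 100 mGy than at 10 mGy, at 0.668, 0.743 and 0.760. Unlike HMOX1, they were not below the control by 1.2-fold at either dose on that scale. BLVRA, the other biliverdin reductase, was at 1.35 and 1.27 times the control. FTL and FTH1 have many near-identical pseudogene copies, so their counts are uncertain.

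The calls in the other lists depended on the scale. Counts are given in pooled CPM, then relative to the median of all genes and in unscaled UMIs per barcode, and the shares of all genes on the 3 scales are those given above for the regulators and further targets. Of 5 enzymes that supply NADPH, TALDO1 was at 1.27 and TKT at 0.805 times the control at 10 mGy, and TKT alone was past 1.2-fold at 100 mGy (0.719). Relative to the median 3 and 2 of the 5 were higher and 0 lower, and unscaled 4 and 5 were lower. PGD, an NADPH-forming enzyme of the pentose phosphate pathway, was at 0.979 and 1.001 times the control at the low doses. Of 6 glutathione genes 4 reached 10 CPM, and at each low dose GSTM3 was higher (1.66 and 1.57) and the reductase GSR and the exporter ABCC1 lower. Relative to the median 2 were higher and 1 lower at each dose, and unscaled 3 were lower. Of 11 detoxification genes 4 reached 10 CPM, with CBR1, EPHX1 and PTGR1 higher at 10 mGy, and CBR1 and PTGR1 at 100 mGy. Relative to the median all 4 were higher at each dose, and unscaled 0 were higher and 1 and 4 lower. The AKR1B10 and AKR1C genes, NRF2 targets in many human cells, were at 2.45 CPM or below. Of 3 remaining targets only TRIM16 reached 10 CPM, with ratios of 0.793 and 0.763, which were 0.979 and 0.995 relative to the median and 0.550 and 0.488 unscaled.

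Of 8 other thioredoxin and peroxiredoxin genes, 7 were higher at 10 mGy and 6 at 100 mGy in pooled CPM, against 15.4% and 14.0% of all genes. Relative to the median of all genes it was 7 and 8 (30.7% and 31.8%), and in unscaled UMIs per barcode 1 and 0 (1.62% and 1.02%). PRDX2 was at 1.68 and 1.69 times the control and the mitochondrial PRDX5 at 1.74 and 1.72 times. TXNIP, the inhibitor of thioredoxin, was at 55.1, 35.2, 51.9 and 55.0 CPM, low at 10 mGy. ATF4 also drives SLC7A11, and of ATF4 and 7 of its targets 5 reached 10 CPM. At each low dose 4 of the 5 were lower in pooled CPM, where 53.0% and 58.9% of all genes were, and 2 of the 5 relative to the median of all genes, where 27.0% and 29.0% were. In unscaled UMIs per barcode 4 were lower at each dose (84.6% and 90.1%). ATF4 itself was at 0.610 and 0.559 times the control, and DDIT3 at 2.02 and 1.40 times.

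The spread of the 9 genes over cells was described in cells thinned to 5000 UMIs each, without the low-UMI barcodes. The control, 10 mGy, 100 mGy and 1 Gy libraries kept 8937, 12561, 14271 and 11530 cells. This left out 0, 42, 206 and 36 shallower cells. By the variance over the mean, HMOX1 was the most unequally spread. The variance over the mean of its UMIs per cell was 2.23, 1.99, 1.68 and 2.28 in the order of the doses, where counting alone gives 1. It was at most 1.30 in the other 8 genes, TXN, PRDX1 and TXNRD1 included, whose mean per cell was higher. This measure stays near 1 in genes with few UMIs, so it does not rank HMOX1 against SLC7A11, GCLC and SRXN1. In the dispersion with counting variance subtracted, described below, SLC7A11 was at 99.7%, 97.8%, 66.8% and 85.8%. That was above HMOX1 in the control, 10 mGy and 1 Gy libraries. A UMI of HMOX1 was found in 67.0%, 63.3%, 42.6% and 70.3% of these cells, the 100 mGy library being the low one. Equal expression in all cells would have given 78.8%, 73.5%, 49.6% and 82.5% at the same mean. Unthinned, at medians of 15108 to 21752 UMIs, the shares were 94.9%, 92.4%, 72.6% and 92.7%, and in low-UMI barcodes they were 32.8%, 30.5%, 11.7% and 27.5%. No cell type lacking HMOX1 was at hand to measure the share from free RNA.

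Cells with 5 or more HMOX1 UMIs among 5000 were 6.76% of cells in the control, 4.53% and 1.2% in the 10 mGy and 100 mGy libraries, and 8.74% in the 1 Gy library. The highest cell had 28, 30, 15 and 19. At 100 mGy, then, both the share of cells with HMOX1 and the share with a high level were the lowest of the 4 libraries. Both follow the mean per cell, which was 1.55, 1.33, 0.685 and 1.74 UMIs in the order of the doses. The 1% of cells with most HMOX1 held 6.89%, 7.07%, 9.17% and 6.62% of its UMIs. What counting alone would give at these means was not computed for this share.

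NQO1 was found in 49.5%, 60.2%, 57.6% and 49.5% of thinned cells, where equal expression would have given 51.2%, 62.5%, 59.5% and 50.6%. PRDX1 was found in 91.0%, 98.5%, 98.7% and 91.7%, and TXN in at least 99.0%. SLC7A11 was found in 7.74%, 5.10%, 3.28% and 7.58%, with no more than 5 UMIs in a cell, so its spread over cells could not be resolved at this depth.

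**Figure D4:**
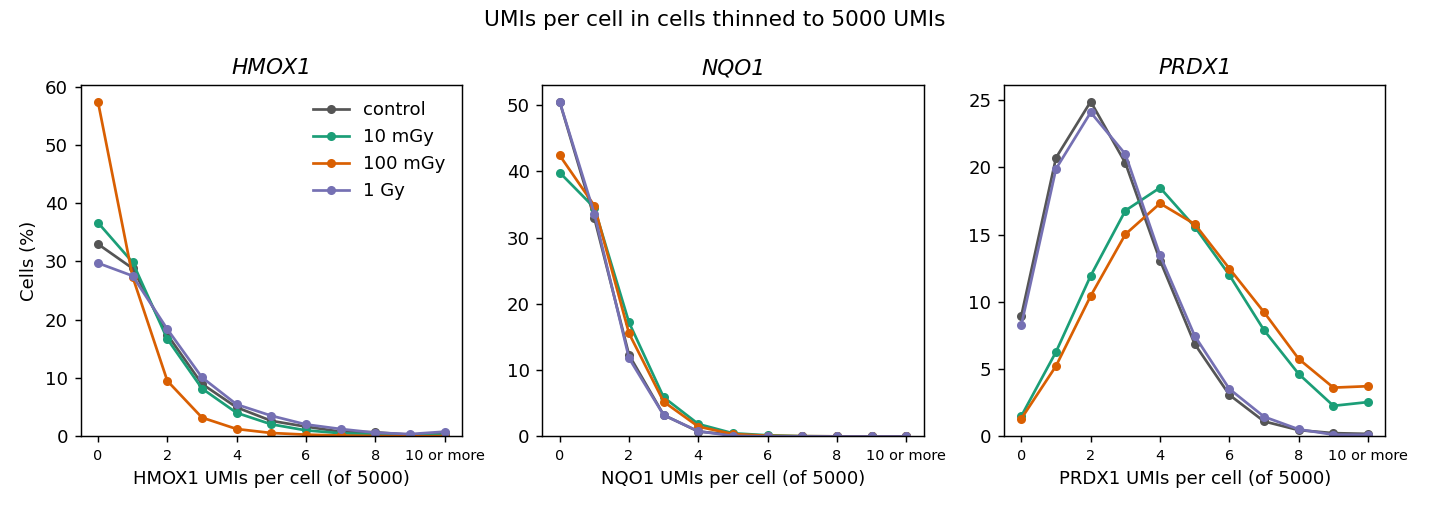
Share of cells (y axis, %) by the number of UMIs of HMOX1, NQO1 and PRDX1 per cell (x axis) in cells thinned to 5000 UMIs, 1 line per library. HMOX1 has a tail of cells with 5 or more UMIs, 1.2% of cells at 100 mGy and 8.74% at 1 Gy, and the control and 1 Gy lines lie together for NQO1 and PRDX1.

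The dispersion the study uses is the standard deviation over the mean between cells, taken here on UMIs scaled to 10000 per barcode over all deposited barcodes. For HMOX1 it was 112%, 126%, 183% and 116% in the order of the doses, highest at 100 mGy. Without the low-UMI barcodes HMOX1 was at 98.7%, 98.9%, 125% and 96.2%, and with the counting variance subtracted at 88.6%, 73.7%, 94.6% and 82.8%, where 100 mGy stood less apart from the control. For TXN it was 46.9%, 46.6%, 54.4% and 60.8%, and without the low-UMI barcodes 27.6%, 25%, 28.9% and 31.9%. In 0 of the 9 genes was the value at 100 mGy below that at 10 mGy, as it was in 1.41% of all genes. This count depended on the scaling, which the study does not name. In unscaled UMIs it was 5 of the 9 (43.9% of all genes), and in thinned cells 1 (31.3%). With the counting variance subtracted GCLM, SRXN1 and SLC7A11 were lower at 100 mGy (47.8% of all genes), and for SRXN1 the value left at 100 mGy was 0.

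Between single cells of a library the 9 genes showed little co-variation. A Pearson r of 0.1 was rare among pairs of all genes too. Of the 36 pairs of the 9 genes, 0 reached it in the control, at 10 mGy and at 1 Gy, and 1 did at 100 mGy. Among all pairs of genes with at least 50 CPM, a level that 6 of the 9 reached, the shares were 0.0564%, 0.0471%, 0.0700% and 0.0532% in the order of the doses. The median r of the 36 pairs was 0.0089, 0.010, 0.0014 and 0.0092. For the 15 pairs of those 6 genes it was 0.0219, 0.0181, 0.0120 and 0.0136, and the 1 pair that reached 0.1 at 100 mGy was 6.67% of them. TXN and PRDX1, the substrate pair of the thioredoxin system, had the highest r in the mean over libraries, 0.0632, with 0.103 at 100 mGy. NQO1 with PRDX1 (0.0400) and NQO1 with TXN (0.0375) were next. Correlations as weak as these, in counts this sparse, are given as a description only. All cells of a library share its preparation, and thinning set their depth equal.

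**Figure D5:**
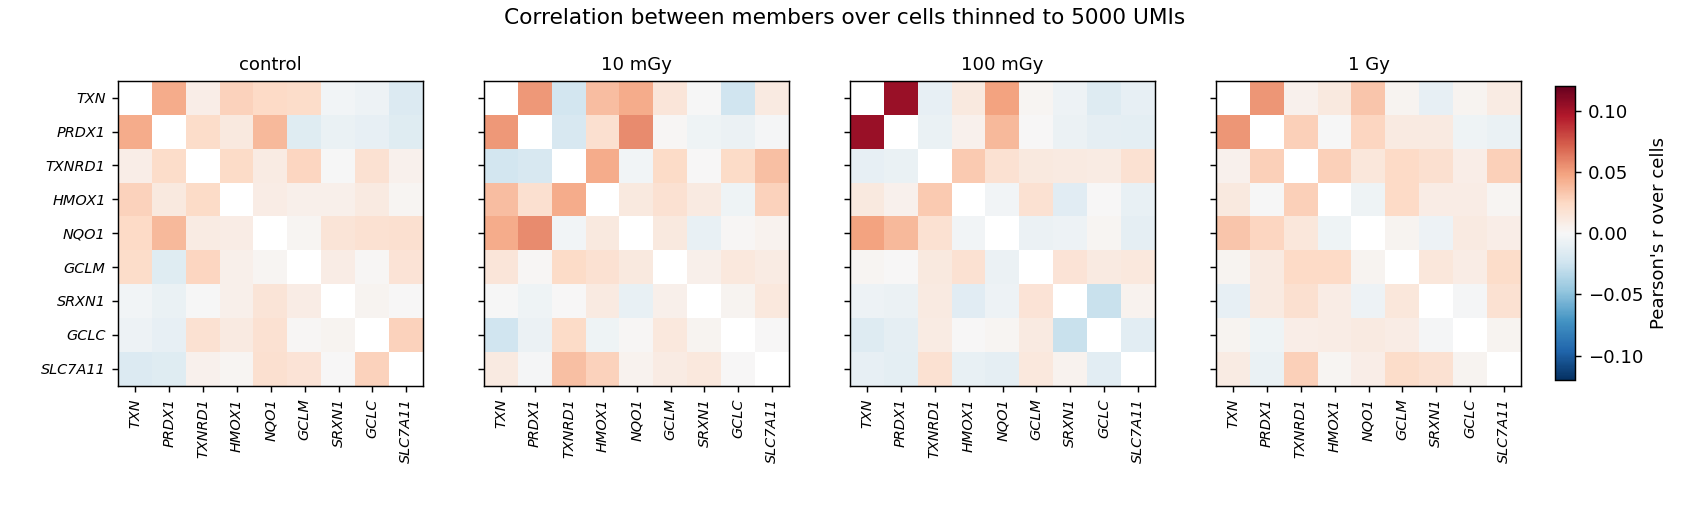
Pearson's r over cells thinned to 5000 UMIs for each pair of the 9 genes (rows and columns), 1 panel per library, with colour from -0.12 (blue) to 0.12 (red). The darkest cell is TXN with PRDX1 at 100 mGy (0.103), and the highest r in the control is 0.0448.

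Cells of each library were ranked by the mean of the other 8 genes, each standardized, and cut into 4 equal groups. In the top group NQO1 was 1.12 to 1.17 times and HMOX1 1.10 to 1.2 times as high as in the bottom group, over the 4 libraries. TXNRD1, GCLM, TXN and PRDX1 lay between 1.04 and 1.11. GCLC (0.884 to 1.24), SRXN1 (0.916 to 1.11) and SLC7A11 (0.95 to 1.41) lay on both sides of 1. Of 3509 genes with at least 50 CPM, those outside the 9 that varied most like the mean of the 9 included FTH1 (mean r of 0.101 over 4 libraries), FTL (0.0843), VIM (0.0659), MT2A (0.0656), HSP90AB1 (0.0647), KCNMA1 (0.0582) and HSPD1 (0.0572). Their mean levels were 4243, 3230, 2482, 3952, 1681, 216 and 676 CPM in that order. The part of abundance in these r was not tested. FTH1 had a mean r of 0.177 with HMOX1 and of 0.0574 with NQO1. By single gene, the gene most like HMOX1 in the mean over libraries was FTH1, at an r of 0.198, 0.164, 0.137 and 0.208 in the order of the doses. KCNMA1 was close to it, at 0.172, 0.163, 0.143 and 0.178, and was above FTH1 at 100 mGy. TXN was most like RPL35, a ribosomal protein gene (mean r of 0.126). For NQO1, GCLM, GCLC, SRXN1, PRDX1 and SLC7A11 no mean r was above 0.0799.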

How the data were processed

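The deposited files hold raw UMI counts of each gene in each barcode, for 1 Chromium 3′ v3 library per dose. The file headers name Cell Ranger 7.0.1. The submitters' processing notes name Cell Ranger, STAR and GRCh37, but the build behind the counts could not be settled. Coordinates printed here are GRCh38. Which annotation was used, and whether intronic reads were counted, is not given in the sources used here. All deposited barcodes were kept, doublets included, unless stated. Raw counts were summed per library, divided by library totals (pooled CPM), and compared as ratios with exact conditional 95% intervals. The intervals are narrow for libraries this deep and leave out variation between cultures. For cells, UMIs were thinned without replacement to 5000 (seed 1), and r was taken on log(1 + UMIs). No test between doses was possible with 1 library each. The 9 genes and the other lists were chosen with earlier results of these data known, and all genes of these lists are counted, the 9 each with values. Genes named for likeness are those with the highest mean r, and some genes under these rules are not reported here. Alternatives were other scalings, barcode filters, depths, folds and floors. The ratios and r were tested on simulated data. Python 3.11.15, numpy 2.4.6, scipy 1.17.1 and pandas 2.3.3 were used. Exonic length came from GENCODE 29.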

Additional observations from a re-analysis of the deposited data

How the results depend on the processing

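No paired analysis was possible because each dose has 1 library and the labels give no replicate numbers. Counts of the 9 genes past 1.2-fold stayed within 1.5 times under scaling per barcode, median ratio scaling, totals without ribosomal protein and mitochondrially encoded genes, both barcode filters and thinning to 5000 UMIs. With unscaled UMIs per barcode 1 of the 9 was higher at 10 mGy (1.62% of all genes), 1 at 100 mGy (1.02%), and 9 were lower at 1 Gy (97.2%). With unscaled UMIs without low-UMI barcodes, a setting added after the data were examined, 1 was higher at 100 mGy (2.37%) and 8 were lower at 1 Gy (83.0%). At 1.5-fold 1 was higher at 100 mGy (5.04%). Unscaled UMIs turned the ratios of NQO1 (0.938 at 10 mGy, 0.804 at 100 mGy) and TXN (0.924 at 100 mGy), and at 1 Gy those of HMOX1 (0.798), PRDX1 (0.735), SRXN1 (0.742), GCLM (0.721) and SLC7A11 (0.741), where the median of all genes was 0.721, and without low-UMI barcodes that of NQO1 at 100 mGy (0.890) and at 1 Gy those of the same 5 genes (0.858, 0.781, 0.796, 0.776 and 0.795; median of all genes 0.774). Of all genes, 1313 were higher and 4507 lower at 10 mGy, and 2600 and 2319 with median ratio scaling. At 100 mGy the counts were 1190 and 5011, and 2707 and 2468. Unscaled, 138 and 87 were higher at these doses, and at 1 Gy 8265 in place of 72 were lower. The dispersion at 100 mGy was below that at 10 mGy for 5 of the 9 in unscaled UMIs (43.9% of all genes), 1 in thinned cells (31.3%) and 3 with counting variance subtracted (47.8%). Pairs with an r of at least 0.1 without thinning were 2, 4, 3 and 1 in the order of the doses, and with all barcodes 4, 3, 11 and 4. In these settings depth differs between cells, and the share over all pairs of genes was not computed. These counts are therefore not read as co-variation of the 9. At 100 mGy there were 0 with thinning to 1500 UMIs, with Spearman's rho and after regression on the ribosomal protein and mitochondrially encoded shares. The cause of these changes was not tested. Depth limits SLC7A11, GCLC and SRXN1 in single cells.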
